A study of Mus musculus with 8 samples.

Results

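The genes described here are 10 laminin chains and laminin receptors of the Schwann cell: the chains Lama2, Lama4, Lama5, Lamb1, Lamb2 and Lamc1, the integrin subunits Itga6, Itgb1 and Itgb4, and dystroglycan, Dag1. They were chosen by name, for their role in the Schwann cell basal lamina, with earlier results of these data known. They are 10 of the 53090 genes in each library and 10 of the 17090 genes tested. The study asked what loss of neddylation, the attachment of the ubiquitin-like protein NEDD8, does to developing peripheral nerve. Total RNA of sciatic nerves from 7-day-old mice was sequenced after removal of ribosomal RNA. The Nae1 cKO nerves (n = 4, named K2, L1, L5 and L8) came from Cre-positive Nae1 f/f mice, in which the Cre driver recombines a floxed Nae1 in Schwann cells from embryonic stages on. The WT nerves (n = 4, named K1, L3, L4 and L9) came from Cre-negative littermates that also carried 1 or 2 floxed Nae1 alleles. Nae1 encodes the regulatory subunit of the enzyme that activates NEDD8. Cre is directed to Schwann cells, and the nerve also holds fibroblasts, perineurial cells, vessels and macrophages. Nothing in the labels says that each library is a separate animal, so p-values measure the spread between these libraries.

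Laminins are trimers of an alpha, a beta and a gamma chain that form the scaffold of basement membranes. In nerve, Schwann cells deposit a basal lamina in which laminin-211 (Lama2, Lamb1, Lamc1) and laminin-411 (Lama4, Lamb1, Lamc1) are the main trimers, and mutations of human LAMA2 cause a muscular dystrophy with neuropathy. The receptors through which Schwann cells bind laminin include the integrins alpha 6 beta 1 and alpha 6 beta 4 and dystroglycan. Contact with laminin is needed for sorting axons and for myelination.

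Promoter windows are shown for the 3 chains with a RefSeq window whose mRNA passed the test, Lama2 and Lamb1, which fell, and Lama5, which rose. Windows were found for 6 of the 10 genes, 7 windows in all, of which the 2 of Dag1 overlap each other, and each runs from 250 bases before to 50 bases after the annotated start. Each sequence is from RefSeq (GRCm38.p6), 5′ to 3′ on the gene's own strand, with capitals at matches, on either strand, to the short motif letters ACAAAG (SOX factors), GGAATG (TEAD factors), GTGGG (EGR factors) and GGGCGG (GC box).
Lama2, chr10:27616893-27617192, minus strand: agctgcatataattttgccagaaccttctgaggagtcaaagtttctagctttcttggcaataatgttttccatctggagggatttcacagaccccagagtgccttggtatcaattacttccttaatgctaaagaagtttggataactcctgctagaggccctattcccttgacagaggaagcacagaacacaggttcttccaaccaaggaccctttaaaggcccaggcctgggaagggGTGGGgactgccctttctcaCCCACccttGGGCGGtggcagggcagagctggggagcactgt
Lamb1, chr12:31265043-31265342, plus strand: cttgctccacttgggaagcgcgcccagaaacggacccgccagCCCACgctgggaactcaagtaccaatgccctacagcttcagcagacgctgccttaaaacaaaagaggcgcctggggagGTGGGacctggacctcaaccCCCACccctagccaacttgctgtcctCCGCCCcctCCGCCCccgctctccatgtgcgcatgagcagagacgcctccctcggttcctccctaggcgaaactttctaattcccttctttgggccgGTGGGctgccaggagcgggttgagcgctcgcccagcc
Lama5, chr2:180225810-180226109, minus strand: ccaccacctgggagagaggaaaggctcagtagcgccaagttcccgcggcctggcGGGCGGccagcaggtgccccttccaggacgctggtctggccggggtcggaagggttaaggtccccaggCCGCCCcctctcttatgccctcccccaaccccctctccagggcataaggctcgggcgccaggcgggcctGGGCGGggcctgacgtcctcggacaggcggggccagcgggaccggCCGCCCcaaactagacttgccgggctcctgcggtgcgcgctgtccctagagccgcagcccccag

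The Lama2 window was 50.3% G and C with 1 CpG, the Lamb1 window 63.7% with 18 CpG, and the Lama5 window 72.7% with 24 CpG. The whole Lama2 window lay inside the annotated span of its gene, 26980036 to 27619758, and so did not cover the 5′ end of that span. GGGCGG was found in 6 of the 7 windows (5 of the 6 genes, since the Dag1 windows share matches), against 35.7% of all 32851 windows of the same length, and all 3 windows shown held it. GTGGG was found in 6 of 7 windows (5 of 6 genes), against 62.0% of all windows, and among those shown it was in Lama2 and Lamb1 and not in Lama5. Longer EGR letters, GTGGGCG, were searched only after the GTGGG count had been seen, and they were found in 0 of 7 windows, against 7.97% of all windows. The EGR count therefore turns on the letters chosen. GGAATG and ACAAAG were each found in 1 of 7, the Itgb1 window, against 14.7% and 18.7% of all windows. EGR and GC box letters can overlap. These matches describe letters in a window and say nothing of binding.

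The libraries held 12962798 to 14766770 expected counts. Nae1 itself, given as CPM (its counts as a part per 1000000 of the library) after TMM scaling, was at 57.1, 57.2, 48.9 and 43.8 in the Nae1 cKO nerves, against 89.8, 81.3, 77.7 and 82.7 in the WT nerves, a log2 fold change of -0.68 ± 0.10 (SE; edgeR quasi-likelihood test with Benjamini-Hochberg adjustment, adjusted p = 2.77e-04). The whole nerve was sequenced, so a gene's level cannot be split into cells and RNA per cell: fewer cells of a type and less RNA per cell cannot be told apart. Of 7 Schwann cell markers, 3 were lower, among them Sox10 (log2 fold change -0.74), 1 was higher, Cdh19 (0.80), and 3 did not pass, among them S100b (-0.08) and Erbb3 (-0.08). Fibroblast markers summed to 17077 to 18924 CPM against 13694 to 16782 CPM, with 4 of 5 higher, macrophage markers to 241 to 299 against 151 to 165 CPM, with 4 of 6 higher, and endothelial markers to 171 to 210 against 229 to 281 CPM, with 3 of 7 lower. Skeletal muscle markers summed to 62.6 to 175 CPM in Nae1 cKO and 127 to 2095 CPM in WT nerves, highest in WT L4. No marker of these lists was at 0 in all nerves. For all genes tested, the edgeR test called 12.3% lower and 14.1% higher. The Nae1 cKO nerve K2 stood apart, since the small nuclear RNA 7SK took 4.70% of its counts and 1.94% to 2.43% of those of L1, L5 and L8.

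Of the 10 genes, 5 were lower in Nae1 cKO nerves (Lama2, Lamb1, Lamc1, Itga6 and Itgb4), 1 was higher (Lama5) and 4 did not pass (Lama4, Lamb2, Itgb1 and Dag1). Among all genes tested, 12.3% were lower and 14.1% higher by the same test. No gene of the 10 passed with a change over 2-fold, a class that held 6.75% of all genes in either direction. The nerves of the groups did not overlap for 6 of the 10, against 28.6% of all genes. The median log2 fold change was -0.27 over the 10 genes and 0.0066 over all genes. DESeq2 called 6 and limma-voom 6 of the 10, against 28.0% and 26.1% of all genes. In fits of log2(TPM + 1) only Itga6 of the 5 lower genes passed, and there 75.4% of all calls were on the higher side, against 53.5% with TMM. Nae1 did not pass in that fit either (-0.44, adjusted p = 0.266).

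**Figure D1:**
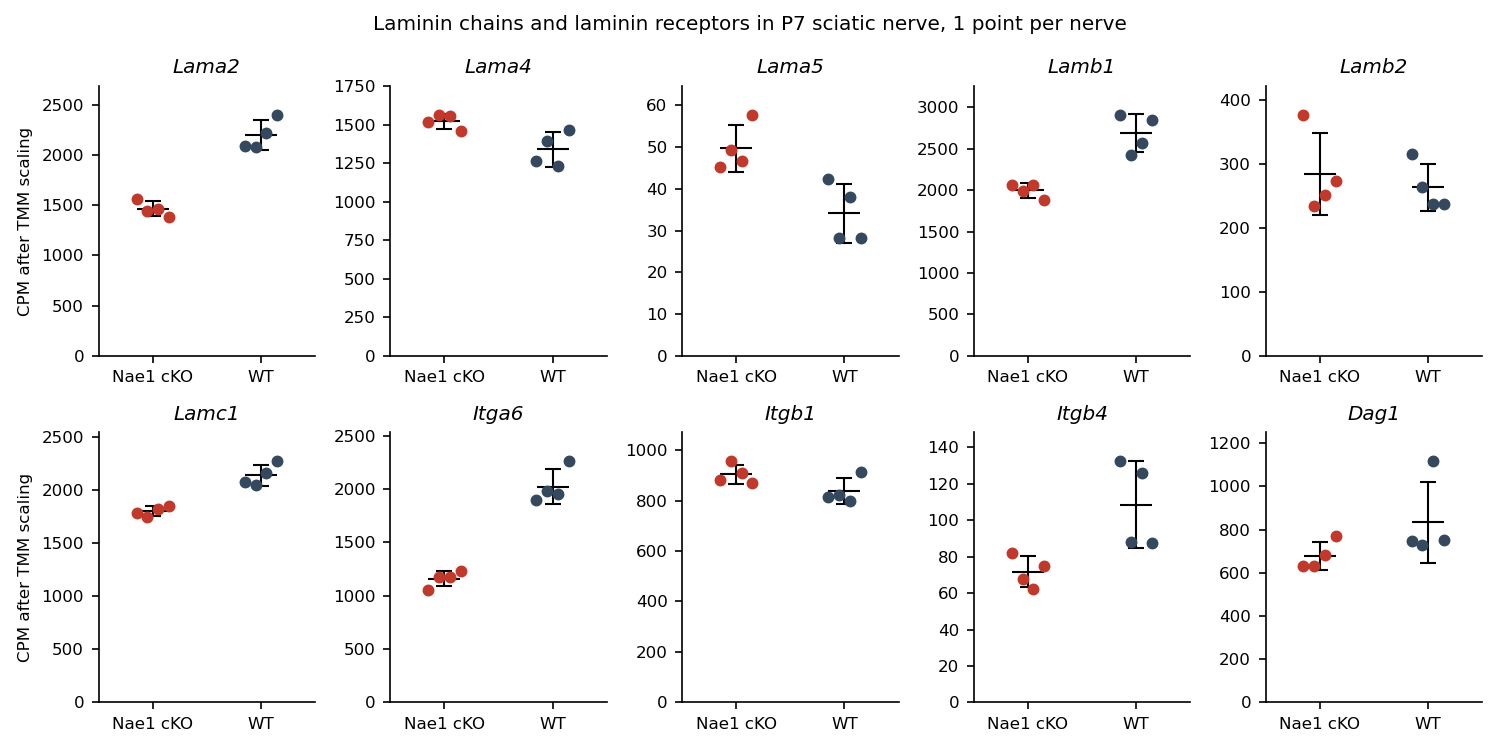
CPM after TMM scaling (vertical axes, from 0) for the 10 genes, 1 point per nerve, Nae1 cKO left and WT right, with bars at the mean ± SD (n = 4 each). The groups do not overlap for Lama2, Lama5, Lamb1, Lamc1, Itga6 and Itgb4, and 1 WT nerve stands far above the others for Dag1.

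The alpha chains moved in different directions. Lama2, the alpha chain of laminin-211 (chr10:26980036-27619758, minus strand, GRCm38), was at 1565, 1444, 1463 and 1384 CPM in Nae1 cKO nerves, against 2093, 2078, 2217 and 2400 CPM in WT nerves. The groups were well apart, with a log2 fold change of -0.59 ± 0.080 (SE, adjusted p = 1.95e-04). Without WT K1 and L4, the WT nerves with the most Myh4 (a muscle myosin), the value was -0.62 (adjusted p = 0.00495). The part of muscle RNA in the Lama2 value was not tested further. Gm48084, an antisense gene, overlaps 3 exons of Lama2, and reads there can be told apart only if counting used the strand. The methods name a stranded library kit, but whether counting used the strand is not given in the sources used here.

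Lama4, the alpha chain of laminin-411 and of vessel basement membranes, averaged 1522 ± 48.4 CPM in Nae1 cKO and 1339 ± 111 CPM in WT nerves (SD, n = 4 each). The difference, 0.18 ± 0.080 on the log2 scale, did not pass (adjusted p = 0.113), and WT L9, at 1465 CPM, lay above Nae1 cKO L8, at 1457 CPM. Lama5, an alpha chain of vessel and perineurial basement membranes, was the least abundant of the 10 genes. Its CPM were 45.2, 49.3, 46.7 and 57.7 in Nae1 cKO nerves, against 42.3, 28.2, 37.9 and 28.2 in WT nerves, with the K nerves of the groups, at 45.2 and 42.3, close together. It rose by 0.54 ± 0.14 on the log2 scale (SE, adjusted p = 0.0128), and by 0.70 in the L nerves alone. Markers of endothelium moved the other way. The perineurial list had 5 markers, of which Itgb4, 1 of the 10 genes, was lower (-0.60) and was left out of the sums. Of the other 4, 3 were tested and did not pass (median log2 fold change 0.61). The 4 summed to 76.4 to 160 CPM in Nae1 cKO and 41.7 to 90.0 CPM in WT nerves. The part of endothelium and perineurium in the Lama5 value was not tested.

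Of the beta chains, Lamb1, which is in both main Schwann cell laminins, was at 2058, 1984, 2063 and 1880 CPM in Nae1 cKO nerves, against 2908, 2421, 2569 and 2847 CPM in WT nerves. The groups did not overlap (log2 fold change -0.43 ± 0.084, SE, adjusted p = 0.00239). Lamb2, the beta chain of synaptic and perineurial basement membranes, averaged 284 ± 64.1 and 264 ± 36.7 CPM (SD, n = 4 each) in Nae1 cKO and WT nerves, a log2 difference of 0.11 ± 0.15 (SE, adjusted p = 0.641). The nerve K2, at 377 CPM, was its highest, and without K2 the log2 fold change was -0.07.

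Lamc1, the gamma chain shared by all these trimers, was at 1788, 1747, 1823 and 1857 CPM in Nae1 cKO nerves, against 2082, 2054, 2163 and 2274 CPM in WT nerves. The groups did not overlap, with the smallest change of the genes that passed (log2 fold change -0.25 ± 0.072, SE, adjusted p = 0.0233). This call was not stable: it was lost in 9 of 21 alternatives, among them scaling by library totals (-0.09, adjusted p = 0.395) and leaving out WT K1 and L4 (-0.27, adjusted p = 0.121).

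Among the receptors, Itga6, the alpha 6 subunit of some laminin-binding integrins of Schwann cells, had the largest change of the 10 (chr2:71745616-71858416, plus strand). It was at 1057, 1178, 1175 and 1230 CPM in Nae1 cKO nerves, against 1894, 1977, 1953 and 2258 CPM in WT nerves. The nerves of the groups were far apart (log2 fold change -0.80 ± 0.085, SE, adjusted p = 3.03e-05). It kept its call in all 21 alternatives, as did Lama5.

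Itgb4, the beta 4 subunit, which pairs only with alpha 6 and in nerve is found in myelinating Schwann cells and perineurium, was far less abundant. It was at 82.0, 67.6, 62.3 and 74.9 CPM in Nae1 cKO nerves, against 132, 88.3, 126 and 87.4 CPM in WT nerves. The groups did not overlap (log2 fold change -0.60 ± 0.15, SE, adjusted p = 0.0114), but the high WT values are those of K1 and L4, and without them the log2 fold change was -0.30 (adjusted p = 0.136). K1 and L4 also had the highest levels of the muscle myosin Myh4, 158 and 130 CPM against 19.1 and 15.8 CPM in the other WT nerves, and its part was not tested. The long noncoding RNA B230344G16Rik overlaps 7 exons of Itgb4 on the other strand.

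Itgb1, the beta 1 subunit and partner of many alpha subunits, was at 880, 955, 910 and 869 CPM in Nae1 cKO nerves, against 813, 822, 800 and 914 CPM in WT nerves, and the groups overlapped (log2 fold change 0.11 ± 0.075, SE, adjusted p = 0.320). Dag1, which encodes alpha and beta dystroglycan, was at 632, 629, 682 and 768 CPM in Nae1 cKO nerves, against 745, 728, 1115 and 751 CPM in WT nerves. The WT nerve L4 was far above the rest. Dag1 did not pass (log2 fold change -0.30 ± 0.14, SE, adjusted p = 0.131), and its log2 fold change was -0.13 without WT K1 and L4.

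**Figure D2:**
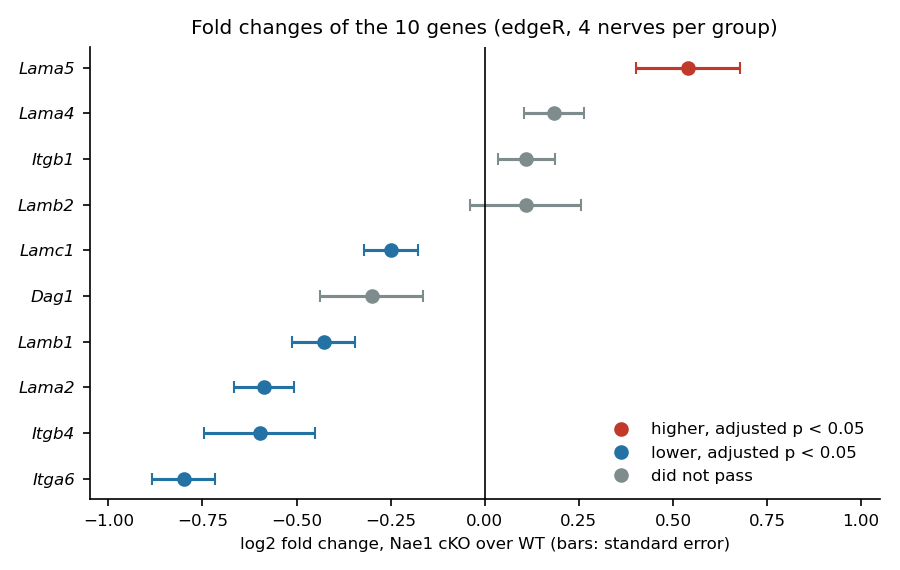
Log2 fold change of Nae1 cKO over WT (horizontal axis) for the 10 genes, ordered by size, with bars at 1 standard error (edgeR, n = 4 each). Lama5 is the only gene past the threshold on the higher side, and Itga6, Itgb4, Lama2, Lamb1 and Lamc1 are on the lower side.

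Ranking the 10 genes by level needs values per length, in TPM (transcripts of a gene among 1000000 transcripts). In Nae1 cKO nerves the means ran Lamb1 296, Itga6 252, Lama4 243, Lamc1 212, Itgb1 185, Lama2 160, Dag1 117, Lamb2 69.9, Itgb4 11.8 and Lama5 8.16 TPM. In WT nerves the order was Itga6 391, Lamb1 366, Lamc1 222, Lama2 218, Lama4 186, Itgb1 154, Dag1 123, Lamb2 53.8, Itgb4 16.0 and Lama5 3.82 TPM. Most neighbours in these orders kept their places in all 4 nerves of a group. The exceptions were Itga6 above Lama4 in 3 of 4 Nae1 cKO nerves and, in WT, Itga6 above Lamb1 in 3 of 4, Lamc1 above Lama2 in 2 of 4 and Itgb1 above Dag1 in 3 of 4 nerves. Lama2 was above Lama4 in 0 of 4 Nae1 cKO and 4 of 4 WT nerves, and Itgb1 was above Lama2 in 4 of 4 Nae1 cKO and 0 of 4 WT nerves. Itga6 was above Lamb1 in 0 of 4 Nae1 cKO and 3 of 4 WT nerves. TPM in K2 were low for nearly all 10 genes. The TPM of Lama5 differed more between groups than its counts, and its effective length was shorter in Nae1 cKO nerves, 4062 to 4980 bases against 4992 to 7254 bases.

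**Figure D3:**
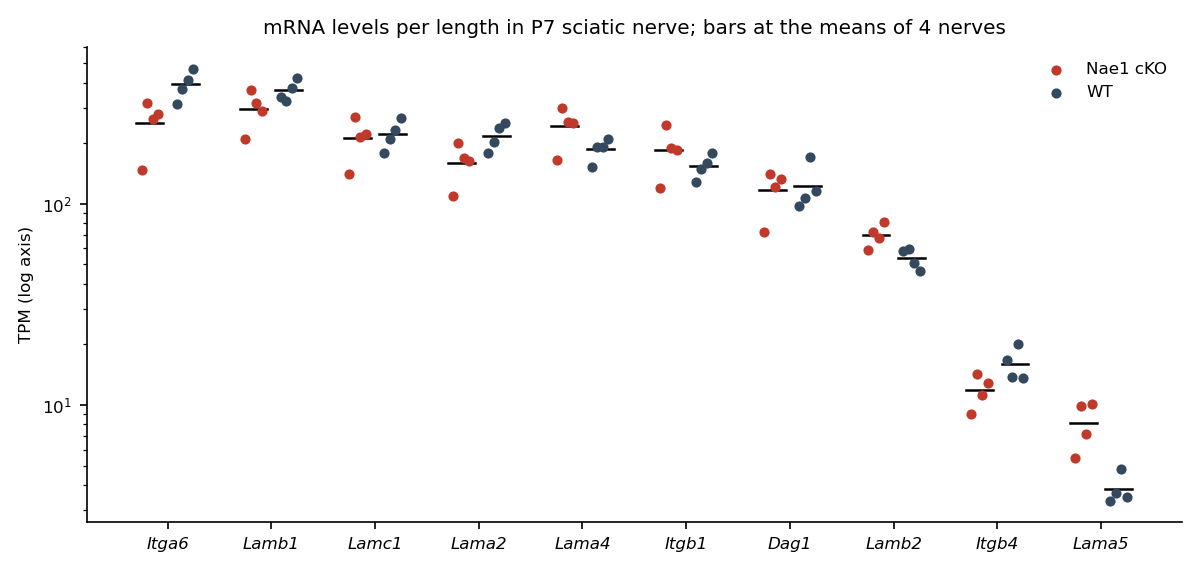
TPM on a log axis for the 10 genes, ordered by the WT mean, with 1 point per nerve and bars at the means, Nae1 cKO left of WT for each gene. Itga6 has the highest WT mean (391 TPM), and Itgb4 and Lama5 sit far below the other genes in both groups.

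Ratios within a nerve do not depend on its scaling. In TPM they do depend on effective length, which for Lama5 did not overlap between groups (4062 to 4980 against 4992 to 7254 bases). Lama2 made up 39.0%, 39.1%, 39.1% and 38.1% of the alpha chain TPM (Lama2, Lama4 and Lama5) in Nae1 cKO nerves, against 53.6%, 51.0%, 54.8% and 54.1% in WT nerves, a difference of -14.5 percentage points. Lama4 made up 59.2% ± 0.23 in Nae1 cKO and 45.7% ± 1.72 in WT nerves (SD, n = 4 each), and Lama5 1.98% ± 0.30 and 0.943% ± 0.15. The share of Lamb1 in Lamb1 plus Lamb2 was 80.5% ± 2.86 and 87.0% ± 2.53, and that of Itgb4 in Itgb4 plus Itgb1 6.13% ± 0.75 and 9.55% ± 2.17. The Itgb4 shares came close to touching, at 7.01% in Nae1 cKO K2 and 7.06% in WT L9. These 5 shares did not overlap between groups, each with p = 0.0286 in a two-sided exact permutation test, the smallest p that 4 nerves against 4 allow. After adjustment over the 9 ratios compared, p was 0.0514, so none passed 0.05.

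The other 4 ratios overlapped. Lamc1 over both beta chains was 0.575 ± 0.040 and 0.526 ± 0.054 (exact permutation p = 0.2), Lamc1 over the alpha sum 0.514 ± 0.015 and 0.542 ± 0.022 (exact permutation p = 0.0571), Itga6 over Itgb4 21.0 ± 3.17 and 25.2 ± 7.13 (exact permutation p = 0.371) and Dag1 over Itgb1 0.634 ± 0.065 and 0.798 ± 0.19 (exact permutation p = 0.114), in Nae1 cKO and WT nerves (SD, n = 4 each). Chosen after the values were seen, and so not tested, Itga6 over Itgb1 averaged 1.36 ± 0.12 and 2.53 ± 0.083, and Lama4 over Lama2 1.52 ± 0.023 and 0.858 ± 0.060.

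**Figure D4:**
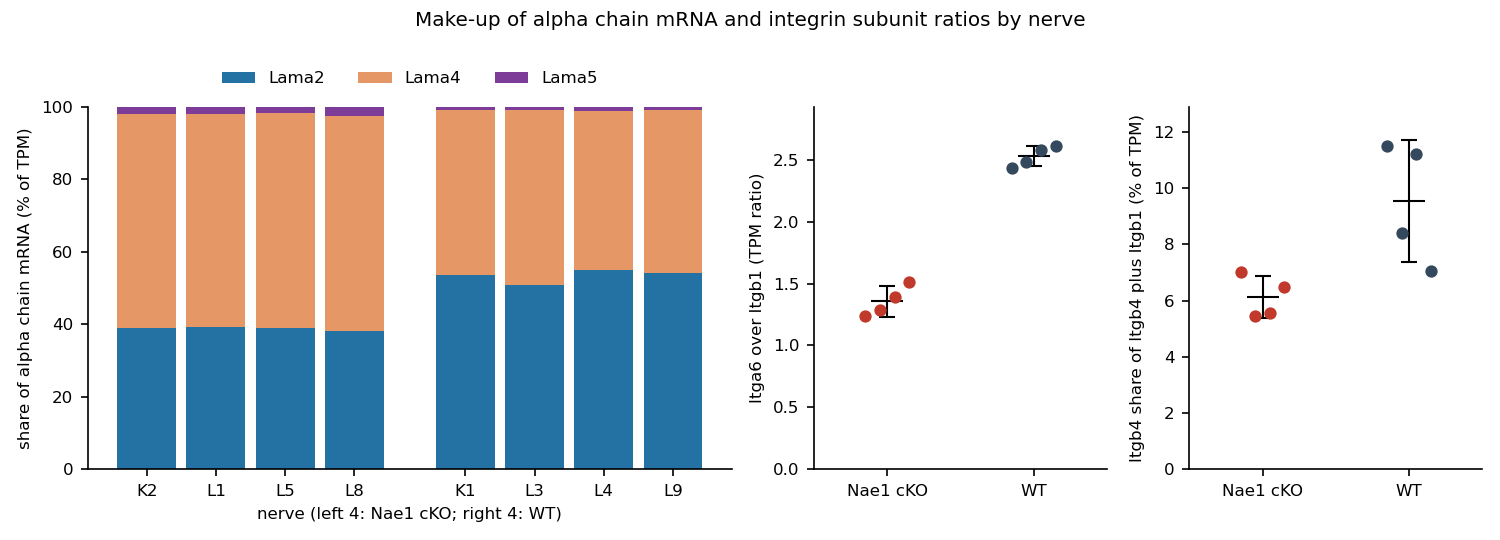
Left, shares of Lama2, Lama4 and Lama5 in their summed TPM (vertical axis, percent) in each nerve, Nae1 cKO then WT. Middle and right, Itga6 over Itgb1 and the Itgb4 share, 1 point per nerve with mean ± SD. Lama2 is at 38.1% to 39.1% in Nae1 cKO and 51.0% to 54.8% in WT nerves.

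The remaining laminin chains were scarce, 33.6 to 40.7 CPM summed in Nae1 cKO and 30.8 to 40.5 CPM in WT nerves. Lama1 was higher (14.9 ± 3.04 and 7.61 ± 2.62 CPM, SD, n = 4 each, log2 fold change 0.97, adjusted p = 0.00753) and Lamc3 lower (-0.62, adjusted p = 0.0308). Lama3 (-0.24) and Lamb3 (0.13) did not pass. Without WT K1 and L4, neither Lama1 (0.79, adjusted p = 0.106) nor Lamc3 (-0.65, adjusted p = 0.103) passed.

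Of 13 other laminin-binding receptors, 9 were higher, 1 was lower and 3 did not pass, with a median log2 fold change of 0.53. The shares were 69.2% higher and 7.69% lower, against 14.1% and 12.3% of all genes tested. This list and those below were written with earlier results of these data known, so the shares only describe them. Itga1, the alpha 1 subunit of a collagen and laminin receptor, averaged 227 ± 11.3 and 117 ± 9.23 CPM (log2 fold change 0.96, adjusted p = 3.54e-06) and the heparan sulfate proteoglycan Sdc4 149 ± 6.01 and 73.7 ± 6.01 CPM (1.02, adjusted p = 2.40e-06) in Nae1 cKO and WT nerves (SD, n = 4 each). The laminin-binding subunits Itga3 (0.89) and Itga7 (0.74) and the syndecans Sdc1 (0.75), Sdc2 (0.52) and Sdc3 (0.69) also rose, as did Itgav (0.53) and Rpsa (0.48), whose reads can be shared with many pseudogene copies. Itgb8, the partner of alpha v, fell to 673 ± 42.6 CPM in Nae1 cKO nerves, against 1149 ± 141 CPM in WT nerves (-0.77, adjusted p = 1.11e-04). Itga2 (-0.06), Bcam (-0.29) and Adgrg6 (-0.22), a G protein-coupled receptor that binds laminin-211, did not pass. Itga7 lost its call without K2 (0.53, adjusted p = 0.0575).

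Of 23 other basement membrane genes, 5 were higher and 3 lower, with a median of 0.09. Hspg2, the proteoglycan perlecan, fell to 1702 ± 146 CPM in Nae1 cKO nerves, against 2460 ± 306 CPM in WT nerves (log2 fold change -0.53, adjusted p = 0.00209). Egflam (0.75), which encodes the dystroglycan ligand pikachurin, Col18a1 (0.78) and Pxdn (0.50), the peroxidase that crosslinks collagen IV, rose. The dystrophin-glycoprotein complex ties dystroglycan to the cytoskeleton. Of its 13 tested genes, 5 were lower (38.5%, against 12.3% of all genes) and 3 higher (23.1%, against 14.1%). Utrn fell to 2958 ± 57.3 CPM in Nae1 cKO nerves, against 5296 ± 343 CPM in WT nerves (-0.84, adjusted p = 1.02e-05), Dmd (-0.84) and Sgcb (-0.80) fell alongside, and Prx, a periaxin scaffold of myelinating Schwann cells that binds Drp2, fell by 1.57 on the log2 scale. Skeletal muscle also expresses Dmd. Of 9 muscle markers, 3 were lower in Nae1 cKO nerves and 6 did not pass, with a median log2 fold change of -2.80. Their sums overlapped between groups, at 62.6 to 175 CPM in Nae1 cKO and 127 to 2095 CPM in WT nerves. The part of muscle RNA in these values was not tested.

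Of 17 tested genes for the sugar chains through which dystroglycan binds laminin, 4 were lower, 1 was higher and 12 did not pass. The shares were 23.5% lower and 5.88% higher, against 12.3% and 14.1% of all genes tested. B3galnt2 was higher (0.61, adjusted p = 2.05e-04), and Pomgnt1 (-0.51) and Ispd (-0.36) were among the lower genes. Of 27 tested genes of integrin adhesion and signaling, 6 were higher (22.2%) and 6 lower (22.2%). The tetraspanin Cd9, an integrin partner, fell to 399 ± 30.4 CPM in Nae1 cKO nerves, against 1031 ± 183 CPM in WT nerves (-1.37, adjusted p = 6.97e-06), and the kinase Fyn fell (-0.61), while the adaptor Vcl (0.65) and the kinase Src (0.78) rose.

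**Figure D5:**
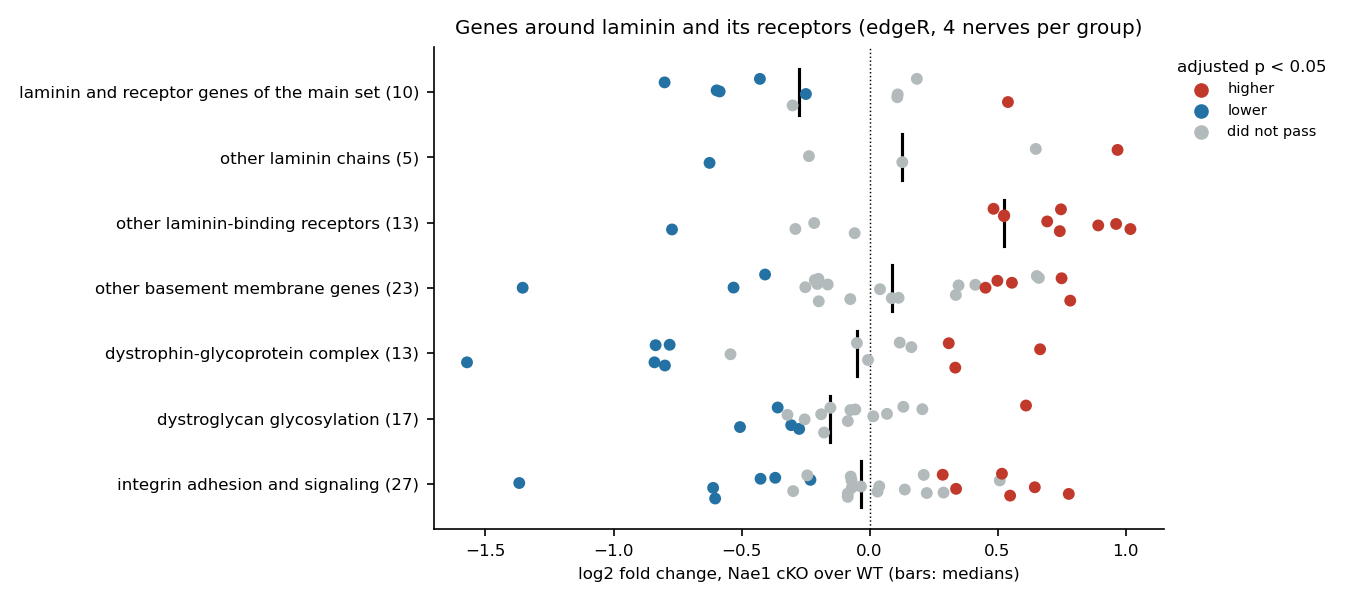
Log2 fold change of Nae1 cKO over WT (horizontal axis) for each tested gene of the 10-gene set and of 6 related lists, with the number tested in brackets, colored by the edgeR result, and bars at list medians. The other laminin-binding receptors have a median of 0.53, against -0.27 for the 10 genes.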

How the data were processed

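RNA-seq libraries of 8 sciatic nerves were analysed. Per the labels the authors used FastQC 0.11.5, STAR and RSEM on GRCm38, and deposited RSEM expected counts, TPM, FPKM and effective lengths per gene and nerve. The study's methods name another aligner and a stranded library kit. Neither the strand setting of the counting nor the annotation release was found in the labels or methods. Expected counts were rounded, filtered with filterByExpr, scaled by TMM and tested with edgeR 4.0.16 (quasi-likelihood, robust, R 4.3.3) on 4 nerves per group, with Benjamini-Hochberg adjustment over 17090 genes and a threshold of 0.05. SE is the log2 fold change over the square root of F. Alternatives used DESeq2 1.42.0, limma 3.58.1 and other scalings, filters, units and samples. Deposited TPM gave ratios, tested by exact permutation (SciPy 1.17.1). The deposited FPKM values served only as alternatives. The fit was tested on simulated data. No 2 libraries of a group agreed within sampling noise. Depth was 12962798 to 14766770 counts. The genes and lists were chosen with earlier results of these data known. The text names all 10 genes, Nae1, all other laminin chains and receptors, and up to 4 genes of each other list with the smallest adjusted p, and markers where a result turns on them, except for some items not reported here. The promoter motif letters were not part of the fixed design, and the longer EGR letters were added after the first count.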

Additional observations from a re-analysis of the deposited data

Results flagged for a closer look

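In 8 of 108 groups of 4 nerves examined, 1 value lay far from the other nerves of its group by Dixon's criterion, and chance gives about 1 in 20. Dag1 was at 1115 CPM in WT L4, against 728 to 751 CPM in the other WT nerves. Itga1 was at 244 CPM in Nae1 cKO L1, against 221 to 222 CPM, and Itgb8 at 609.5 CPM in Nae1 cKO L8, against 688 to 698 CPM. Sdc2 was at 80.8 CPM in Nae1 cKO K2, against 66.9 to 68.2 CPM. Pxdn was at 196 CPM in WT L3, against 155 to 159 CPM, and Itga7 at 183 CPM in WT K1, against 114 to 123 CPM. The Lama2 share of alpha chains was 38.1% in Nae1 cKO L8, against 39.0% to 39.1%, and Lamc1 over the alpha sum was 0.575 in WT L9, against 0.529 to 0.533.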

How the results depend on the processing

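Of the alternatives over all results, 1029 values were labelled the same, 75 weaker, 10 stronger and 13 turned direction. For fold changes, the same means that direction and side of the threshold were kept, and weaker that a call was lost. For counts of genes, the same means within a fixed factor of the main count. For ratios with nerves left out, it means a move below their spread. Among the 10 genes, Lama5 and Itga6 kept their calls in all 21 alternatives, Lama2 and Lamb1 lost theirs only in the fits of log2(TPM + 1) and log2(TPM + 0.1), Itgb4 in those and without WT K1 and L4, and Lamc1 in 9. Genes of the 10 called higher numbered 3 with library totals and 2 with log2(FPKM + 1), in place of 1, and those called lower 1 in both TPM fits and 3 without WT K1 and L4, in place of 5. Genes of the 6 other lists called higher numbered 14 and 15 in the fits of log2(TPM + 1) and log2(TPM + 0.1), in place of 25, and those called lower 13 with library totals, 4 and 4 in the TPM fits, 10 with log2(FPKM + 1) and 13 without WT K1 and L4, in place of 20. The median log2 fold change of all genes was 0.16 with library totals, 0.10 and 0.13 in the TPM fits and 0.13 in the FPKM fit, against 0.0066 with TMM. In these fits 75.5%, 75.4%, 75% and 76.4% of calls were higher, against 53.5% with TMM. Directions turned for genes that did not pass: Lamb2 without K2 (-0.065), Lama3 with FPKM (0.0032), Lamb3 with TPM (-0.26 and -0.74), FPKM (-0.34) and without K2 (-0.23), L4 (-0.02) or L9 (-0.15), and Itga2 with library totals (0.11), TPM (0.022 and 0.016), FPKM (0.042) and without K2 (0.045). Leaving out 1 nerve at a time gave log2 fold changes of -0.065 to 0.20 for Lamb2, -0.23 to 0.73 for Lamb3 and -0.13 to 0.045 for Itga2. The causes were not tested. The 9 ratios moved by less than their spread. Of the noncoding RNAs to be removed in 1 alternative, 7SK copies with Gm names were not identified and stayed in. The labels name no pairs of nerves and do not explain the letters and numbers of the sample names. No paired analysis was run. When the fit also held a term for the name letter (K or L), 2798 genes were higher and 2458 lower, against 2411 and 2099 without it, and among the 10 genes 1 and 5 as before. With 4 nerves per group, the ratio test cannot go below 0.0286.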
